A study of Mus musculus with 12 samples.

Results

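The RNA levels of 9 genes of iron uptake, storage and export were followed in the mouse small intestine (SI) and large intestine (LI), in freshly isolated crypts and in epithelial monolayers grown from them. The genes were Slc11a2, Slc40a1, Cybrd1, Heph, Tfrc, Fth1, Ftl1, Hmox1 and Ireb2, chosen by name and found by their Ensembl identifiers, and they are 9 of the 55487 genes in the count tables. All 9 passed the filter on low counts. The study used C57BL/6 mice, male or female and between 6 and 10 weeks of age, and compared the regions as a model for drug toxicity. There were 3 libraries in each of 4 groups. SI tissue libraries were crypts of the jejunum released with EDTA, and LI tissue libraries were crypts released with collagenase, dispase and EDTA, each from 1 mouse. SI monolayers and LI monolayers were crypts plated on Matrigel and cultured for 24 h in control medium with Wnt3a, EGF, Noggin and R-spondin and the supplements N-2 and B-27, with wells pooled for each library. In the study's methods the crypts were first seeded in another medium, which was then changed to this one. The study's methods take the large intestine from the same mice as the small intestine, so libraries of both regions may share mice, but the labels do not tie them and the fits treat them as independent. The tissue groups, and the monolayers grown from crypts released in the same ways, differ in enzyme digestion as well as in region, and these cannot be told apart.

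Absorptive cells of the gut take up iron at the apical side, hold it in ferritin and release it to the blood at the basal side. The reductase Cybrd1 (duodenal cytochrome b) reduces dietary ferric iron and Slc11a2 (DMT1) imports the ferrous form. Slc40a1 (ferroportin) is the only known iron exporter of mammalian cells, and hephaestin, the product of Heph, oxidizes the iron that leaves. Iron bound to transferrin enters from the blood side through the transferrin receptor Tfrc, which dividing cells use. Ferritin is a shell of heavy (Fth1) and light (Ftl1) chains, of which the heavy chain oxidizes iron and the light chain helps to store it. Hmox1 is the inducible heme oxygenase, which frees iron from heme. Iron regulatory proteins, of which Ireb2 is one, bind a stem-loop in messenger RNAs called the iron responsive element: in a 5′ untranslated region (UTR) the bound protein blocks translation, and in a 3′ UTR it protects the RNA from decay.

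The iron responsive elements of the members are shown because each marks a step, among others, at which iron can act on a gene. Elements in a 3′ UTR act on the RNA level, and those in a 5′ UTR on translation, which RNA counts do not show. The search was for an unpaired C, 5 bases, a loop of CAGTGN and 5 bases that pair with the first 5 (G-T pairs allowed), on the transcript strand of annotated UTRs. The capitals mark the loop, and positions are in GRCm38 (GENCODE vM21 transcripts).
Slc40a1, 5′ UTR, chr1:45925464-45925493, minus strand: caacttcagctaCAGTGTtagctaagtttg
Fth1, 5′ UTR, chr19:9982732-9982761, plus strand: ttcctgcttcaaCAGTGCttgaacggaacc
Ftl1, 5′ UTR, chr7:45459778-45459807, minus strand: gtcttgcttcaaCAGTGTttgaacggaaca
Tfrc, 3′ UTR, chr16:32631219-32631248, plus strand: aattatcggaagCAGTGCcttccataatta
Tfrc, 3′ UTR, chr16:32631598-32631627, plus strand: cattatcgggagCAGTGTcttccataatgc
Slc11a2, 3′ UTR, chr15:100395152-100395181, minus strand: agccatcagagcCAGTGTgtttctatggtt
The ferritin elements share the stem and differ in the last base of the loop. Tfrc held 4 matches in its 3′ UTR, of which the first 2 are printed, and the other two start at 32631663 and 32631710. The Slc11a2 match pairs at 4 of the 5 stem positions and was found in the transcript Slc11a2-205, while the counts are per gene and do not separate transcripts. No match was found in the UTRs of Cybrd1, Heph, Hmox1 and Ireb2 with these letters. Of genes with an annotated 5′ UTR, 0.134% held a match with 5 pairs, and of those with a 3′ UTR 0.605% did (4.09% with at least 4 pairs).

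The libraries held 59016196 to 76216530 counts, and the members' counts ran from 24 (Cybrd1) to 115153 (Fth1). The tissue labels were checked against marker genes: of 6 small intestine genes all 6 were called higher in SI tissue than in LI tissue, and of 6 large intestine genes 5 were called lower. Between tissues 11.6% of all tested genes were called higher in SI and 11.1% lower. The 12 enterocyte genes summed to 1122760 to 1768590 normalized counts in SI tissue and 361414 to 380373 in SI monolayers, so that the libraries labelled SI crypts hold abundant transcripts of mature absorptive cells. SI tissue replicate 3 stood apart, with the lowest enterocyte sum of its group (1122760) and the highest sum of small intestine genes (823682 against 240785 and 377247). The latter sum is mostly Lyz1 and Defa24, products of Paneth cells (up to 359996 and 422318 in SI tissue). All 10 leukocyte genes were called lower in monolayers in both regions. Erythroid transcripts, including hemoglobins, summed to 4701 to 5168 normalized counts in LI tissue, 967.8 to 1324 in SI tissue and at most 154.2 in monolayers. In such bulk RNA, fewer cells of a type and less RNA per cell cannot be told apart.

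Normalized counts are the authors' counts divided by 1 size factor per library. A gene was called where the adjusted p-value of edgeR's quasi-likelihood test was under 0.05 and the log2 fold change was at least 1 in size, and smaller changes that passed the adjusted p alone are given with their size. The 4 pairwise comparisons share libraries, so their results are set side by side and are not independent.

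Per kilobase of the principal transcript (the longest annotated as principal), ferritin RNA stood above all other members in each group. Fth1 reached 80970 normalized counts per kb in SI tissue and 49038 to 54510 in the other groups, and Ftl1 came next with 16096 to 34553. Slc40a1 took rank 3 of 9 in LI tissue at 4452 per kb, next to Tfrc at 4436, but rank 4 with all annotated exons as length (1667 against 3507 for Tfrc). In the other groups it took ranks 7 to 9 at 192.9 to 238.8 per kb of the principal transcript. Tfrc and Heph lay between 2189 and 4436 per kb throughout. Cybrd1 was the lowest member in 3 groups, at 8.09 to 22.9 per kb, and reached 634.6 in SI monolayers. The order of Fth1 and Ftl1 in SI monolayers also turns with all annotated exons.

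**Figure D1:**
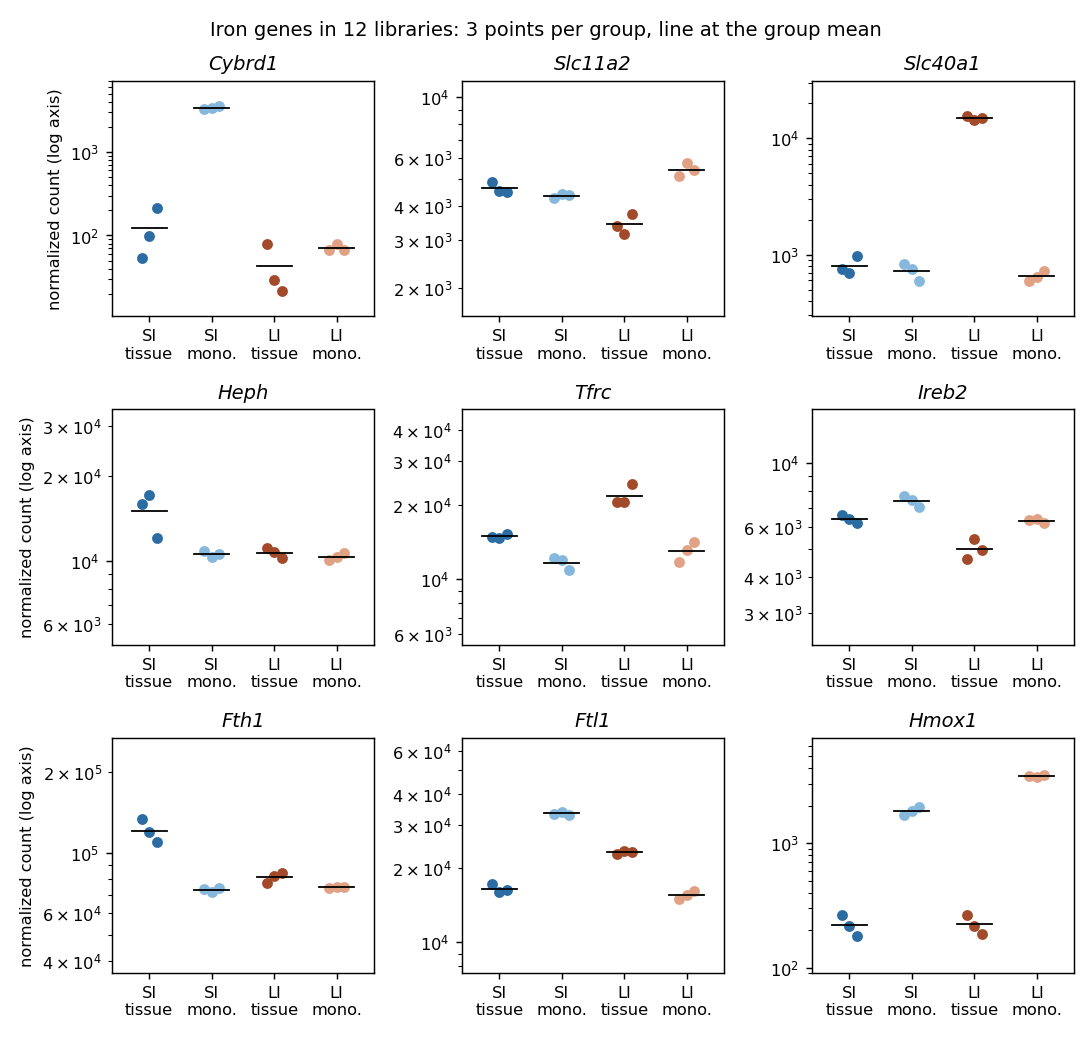
Normalized counts (log axis) of the 9 genes in each of the 12 libraries, with 3 points per group and a line at the group mean. Cybrd1 stands at 3296 to 3533 in SI monolayers alone, Slc40a1 at 14502 to 15530 in LI tissue alone, and Hmox1 is high in both monolayer groups.

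Cybrd1, the apical ferric reductase, was high in SI monolayers and low in the other 3 groups. The SI monolayers held 3296, 3336 and 3533 normalized counts and the SI tissue 54.1, 98.0 and 215.1. The LI tissue held 78.9, 29.3 and 21.4 and the LI monolayers 67.4, 78.0 and 67.2. The SI monolayers lay above every other library without overlap, and the remaining 3 groups partly overlapped. Against SI tissue the log2 fold change was 4.80 ± 0.46 (SE), a 27.8-fold rise (adjusted p = 1.60e-05), and against LI monolayers it was 5.61 ± 0.49 (48.8-fold, adjusted p = 1.11e-05). In LI the change with culture was 0.77 with a 95% interval of -0.60 to 2.13 (adjusted p = 0.285). The rise in SI exceeded that in LI by 4.03 ± 0.77 on the log2 scale (adjusted p = 0.00226). These called values moved with single tissue libraries: without SI tissue replicate 3 the SI change was 5.50 and the interaction 4.73, and without LI tissue replicate 1 the interaction was 3.28, all of them still called.

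The tissue groups differed in Cybrd1 by 1.58 ± 0.56 (log2, SI over LI, adjusted p = 0.0393), with overlapping libraries. Over 18 alternative settings the adjusted p ran from 0.0104 to 0.158 and the call was lost in 14, among them 10 of the 12 fits that left out 1 library. The exceptions were SI tissue replicate 1 and LI tissue replicate 1. Without SI tissue replicate 3, the library with the lowest enterocyte sum and the highest Cybrd1 of its group, the difference was 0.88 (adjusted p = 0.158). LI tissue replicate 1, the highest of its group in Cybrd1, also had the highest sums of mesenchymal genes (6291 against 4799 and 3657) and of small intestine genes (4324 against 2309 and 1595). Lyz1 and Defa24 made up most of its small intestine sum as well. In SI tissue the library with the highest mesenchymal sum (replicate 1, 3170 against 2034 and 1394) had the lowest Cybrd1. The part of these cells in the Cybrd1 level was not tested.

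Slc11a2, the ferrous iron importer, varied less. Its counts were 4892, 4537 and 4474 in SI tissue and 4280, 4417 and 4372 in SI monolayers. In LI tissue they were 3383, 3136 and 3734, and in LI monolayers 5133, 5739 and 5395. LI monolayers lay above and LI tissue below all other libraries. The LI change of 0.71 ± 0.07 (log2, 1.64-fold, adjusted p = 6.01e-08) passed the adjusted p but not the minimum fold change. The SI change was -0.054 with an interval of -0.19 to 0.084 (adjusted p = 0.495). The regional order thus turned with culture: SI tissue exceeded LI tissue by 0.48 (adjusted p = 1.17e-05) and SI monolayers lay below LI monolayers by 0.29, a log2 fold change of -0.29 (adjusted p = 0.00147). The interaction was -0.77 ± 0.09 (adjusted p = 5.35e-06). An overlapping gene on the opposite strand, Gm5475, had at most 37 counts in any library.

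Slc40a1, the exporter, was the member with the largest regional difference in tissue. LI tissue held 15530, 14502 and 14981 normalized counts. SI tissue held 750.4, 694.2 and 969.8, SI monolayers 837.0, 754.0 and 594.5, and LI monolayers 588.2, 645.1 and 717.4. The LI tissue libraries lay above all others without overlap, while the other 3 groups overlapped one another. SI tissue was lower than LI tissue by a log2 fold change of -4.18 ± 0.15 (18.1-fold, adjusted p = 6.44e-10), and LI monolayers were lower than LI tissue by -4.48 ± 0.15 (22.4-fold, adjusted p = 1.32e-10). In SI the change with culture was -0.11 with an interval of -0.42 to 0.20 (adjusted p = 0.519). The monolayers of both regions differed by 0.19 with an interval of -0.12 to 0.51 (adjusted p = 0.292). The interaction was 4.37 ± 0.20 (adjusted p = 1.44e-08).

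Macrophages of the gut and liver also carry ferroportin, so markers of other cells were read beside Slc40a1. Of 12 macrophage genes 10 were tested, and from LI tissue to LI monolayers 6 were called lower and 2 higher. Over all tested genes 23.5% were called lower and 14.5% higher in that comparison. The complement genes C1qa, C1qb and C1qc had mean normalized counts of 201.8, 166.0 and 135.7 in LI tissue, and the LI monolayers held 5.47 to 17.0. Mrc1 (mean of 139.6 in LI tissue, 4816 after culture) and Cd68 (73.4 and 335.9) ran the other way, and Marco had 0 counts in LI tissue. The summed list was 8619 to 9935 in LI tissue and 13088 to 13827 after culture, and in SI 2677 to 6384 before and 8057 to 8381 after it, most of it Cd14, Mrc1 and Lyz2. In SI tissue Lyz2 alone had a mean of 3012 (1547 to 4890), while the means of C1qa, C1qb and C1qc were 21.5 to 49.6. The part of these cells in the Slc40a1 level was not tested.

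Heph, the ferroxidase that accompanies Slc40a1, was highest in SI tissue at 15903, 17169 and 12092 normalized counts. The LI monolayers held 10118 to 10681, the LI tissue 10259 to 11127 and the SI monolayers 10382 to 10890. These 3 groups overlapped, and SI tissue replicate 3 was the lowest of its own group. SI monolayers were lower than SI tissue by a log2 fold change of -0.47 ± 0.09 (adjusted p = 0.000455), and SI tissue exceeded LI tissue by 0.53 ± 0.09 (adjusted p = 0.000176). In LI the change was 0.00091, with an interval of -0.19 to 0.20 (adjusted p = 0.995). In LI tissue, where Slc40a1 was highest, Heph was at the level of the monolayers.

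Tfrc, which brings in iron bound to transferrin, was lower in monolayers than in tissue of both regions. LI tissue held 20472, 20467 and 24142 normalized counts and LI monolayers 11778, 13088 and 14116. SI tissue held 14833, 14693 and 15282 and SI monolayers 12159, 11921 and 10869. Tissue lay above monolayers without overlap in each region, and LI tissue lay above SI tissue. The log2 fold change with culture was -0.69 ± 0.08 in LI (adjusted p = 4.64e-07) and -0.32 ± 0.08 in SI (adjusted p = 0.00147). The changes differed between regions by 0.37 ± 0.11 (adjusted p = 0.00941). LI tissue exceeded SI tissue, with a log2 fold change of -0.50 for SI against LI (adjusted p = 3.41e-05). The monolayers of both regions overlapped and differed by -0.13, with an interval of -0.29 to 0.03 (adjusted p = 0.172). None of these changes reached the minimum fold change. The 10 proliferation genes, which mark the dividing cells that use this receptor, summed to 71089 to 82404 in monolayers and 49591 to 63868 in tissue, with 0 called by edgeR in SI (9 higher at an unadjusted p under 0.05) and 1 called higher in LI. Over all tested genes 9.71% were called higher with culture in SI and 14.5% in LI, and in SI 59.6% passed the adjusted p alone in either direction.

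Ireb2, the iron regulatory protein that binds the elements printed above, changed little. Its counts were 6610, 6391 and 6167 in SI tissue and 7688, 7413 and 7049 in SI monolayers. In LI tissue they were 4645, 5438 and 4975, and in LI monolayers 6333, 6401 and 6167. Monolayers exceeded tissue without overlap in each region, by 0.24 ± 0.06 in SI (adjusted p = 0.00208) and 0.37 ± 0.06 in LI (adjusted p = 3.33e-05) on the log2 scale. SI exceeded LI by 0.39 in tissue (adjusted p = 3.80e-05) and 0.26 in monolayers (adjusted p = 0.00160). The interaction was -0.13 with an interval of -0.31 to 0.05 (adjusted p = 0.223). Aco1, which encodes the other iron regulatory protein, had mean normalized counts of 17459 in SI tissue and 12008 after culture, and in LI of 8771 before and 9903 after it. It was called higher in SI tissue than in LI tissue (log2 fold change 1.03 ± 0.09, adjusted p = 9.77e-08).

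The ferritin chains went different ways with culture in SI, where the light chain rose and the heavy chain fell. Ftl1, the light chain, was 17278, 16078 and 16289 normalized counts in SI tissue and 33406, 33876 and 33061 in SI monolayers. In LI it was 22841, 23510 and 23383 in tissue and 14952, 15626 and 16166 in monolayers. It rose in SI by 1.05 ± 0.05 (log2, 2.07-fold, adjusted p = 3.18e-11), and in LI the log2 fold change was -0.53 ± 0.05 (adjusted p = 4.83e-08). The regional order turned accordingly: SI tissue lay below LI tissue (-0.45, adjusted p = 7.61e-07) and SI monolayers above LI monolayers (1.13 ± 0.05, adjusted p = 1.76e-11). No pair of these groups overlapped except SI tissue with LI monolayers. The interaction was 1.58 ± 0.07 (adjusted p = 7.04e-11). The call in SI rests on the minimum fold change: with only genes of at least 10 counts in every library the value was 0.98.

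Fth1, the heavy chain, was 133085, 120037 and 109785 normalized counts in SI tissue. The LI tissue held 77421 to 84722, the LI monolayers 74597 to 74988 and the SI monolayers 71865 to 74336. SI tissue lay above all other libraries. The SI change was -0.69 ± 0.06 (log2, adjusted p = 9.15e-08) and SI tissue exceeded LI tissue by 0.61 ± 0.06 (adjusted p = 5.00e-07), both under the minimum fold change. The LI change was -0.076 with an interval of -0.21 to 0.057 (adjusted p = 0.291), and -0.19 with upper quartile factors (adjusted p = 0.00578, and up to 0.630 under the other alternatives). The monolayers of both regions differed by -0.0018 with an interval of -0.13 to 0.13 (adjusted p = 0.990).

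The ratio of Fth1 to Ftl1 per kb of principal transcript was 4.73 ± 0.32 (SD, n = 3) in SI tissue and 1.42 ± 0.04 in SI monolayers. In LI it was 2.27 ± 0.08 in tissue and 3.11 ± 0.11 in monolayers. The 4 groups did not overlap in this ratio, and its order between tissue and monolayers was opposite in the regions. The lengths were those of the longest transcript annotated as principal, 1494 bp for Fth1 and 968 bp for Ftl1. They enter as 1 factor in every library, so they set the size of the ratio but not its fold between groups. Processed copies of the ferritin genes can share reads with them: the named pseudogenes together had at most 2.68% of the Ftl1 counts and 0.0160% of the Fth1 counts, and adding them gave ratios of 4.64, 1.39, 2.22 and 3.05 in the same order of groups.

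**Figure D2:**
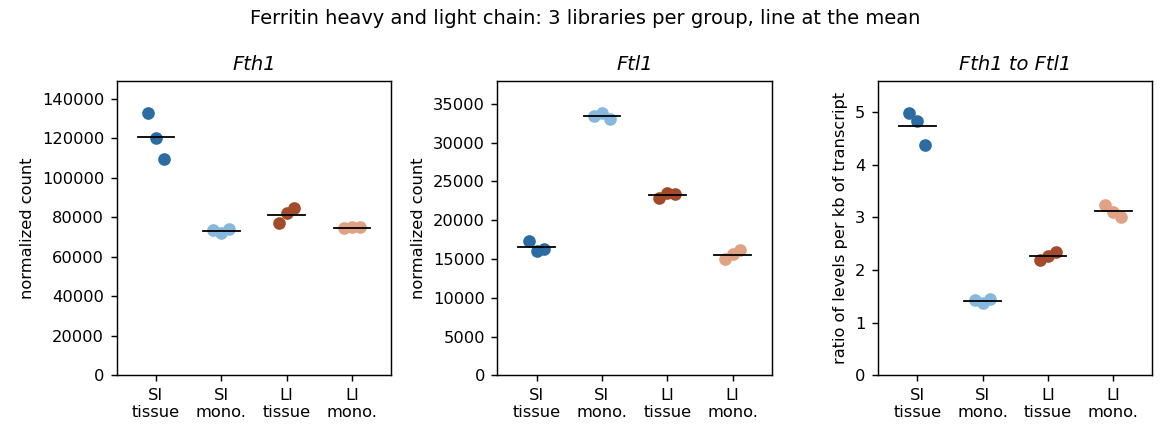
Normalized counts of the ferritin heavy chain Fth1 and light chain Ftl1, and the ratio of their levels per kb of principal transcript, in 3 libraries per group with a line at the mean. The mean ratio is 4.73 in SI tissue and 1.42 in SI monolayers, and in LI 2.27 before and 3.11 after culture.

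Hmox1, which opens the heme ring, was higher in monolayers than in tissue in both regions. SI tissue held 263.5, 214.7 and 179.9 normalized counts and SI monolayers 1681, 1809 and 1959. LI tissue held 265.0, 217.8 and 187.5 and LI monolayers 3432, 3416 and 3488. Tissue of both regions overlapped, and the monolayer groups lay above tissue and apart from each other. The rise was 3.09 ± 0.13 in SI (log2, 8.52-fold, adjusted p = 1.64e-11) and 3.99 ± 0.13 in LI (15.9-fold, adjusted p = 3.49e-13). SI monolayers lay below LI monolayers by a log2 fold change of -0.89 ± 0.11 (adjusted p = 5.36e-06), and the interaction was -0.90 ± 0.17 (adjusted p = 0.000505), both under the minimum. Without SI tissue replicate 3 or LI tissue replicate 1 the interaction was -1.03 in each fit and was called. In tissue the regions differed by 0.0095, with an interval of -0.27 to 0.29 (adjusted p = 0.959).

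Hmox1, Ftl1 and Fth1 are also known targets of the transcription factor Nrf2, and Bach1 is a repressor of such genes. Of 10 genes of that list (Nrf2, Bach1, Keap1 and targets) 2 were called higher and 0 lower in SI monolayers than in SI tissue, and in LI 1 was called higher and 1 lower. That is 20% higher in SI and 10% in each direction in LI, beside 9.71% higher in SI and 14.5% higher and 23.5% lower in LI over all tested genes. Slc7a11, the cystine importer, rose by 4.96 ± 0.19 in SI and 1.89 ± 0.18 in LI on the log2 scale (adjusted p = 1.37e-10 and 4.45e-07), and Gclc, of glutathione synthesis, by 1.81 ± 0.06 in SI (adjusted p = 9.52e-13). Nqo1 was the member called lower in LI (-1.16 ± 0.08, adjusted p = 1.53e-09). These genes were named after their values were seen.

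Counted over the 9 genes, SI monolayers against SI tissue gave 3 called higher (Cybrd1, Ftl1, Hmox1) and 0 called lower, where 9.71% and 16.4% of all 19581 tested genes were called. By the adjusted p alone 7 of 9 passed (4 higher and 3 lower, the same numbers as at an unadjusted p under 0.05), against 59.6% of all genes. LI monolayers against LI tissue gave 1 higher (Hmox1) and 1 lower (Slc40a1), against 14.5% and 23.5%, and 6 of 9 passed the adjusted p alone, against 68.7%. SI tissue against LI tissue gave 1 higher (Cybrd1, with the limits above) and 1 lower (Slc40a1), against 11.6% and 11.1%, and 8 of 9 passed the adjusted p alone, against 53.9%. SI monolayers against LI monolayers gave 2 higher (Cybrd1, Ftl1) and 0 lower, against 12.4% and 8.88%, and 5 of 9 passed the adjusted p alone (3 higher and 2 lower, as without adjustment), against 51.8%. For the interaction 3 were called higher (Slc40a1, Cybrd1, Ftl1) and 0 lower, against 11.4% and 8.51%, and 8 of 9 passed the adjusted p alone (4 in each direction, as without adjustment), against 46.3%. DESeq2 called the same number of members in each comparison. With so few genes these shares are descriptions. The median log2 fold change of the 9 genes was -0.054 in SI and 0.00091 in LI with culture, beside -0.049 and -0.052 over all tested genes.

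**Figure D3:**
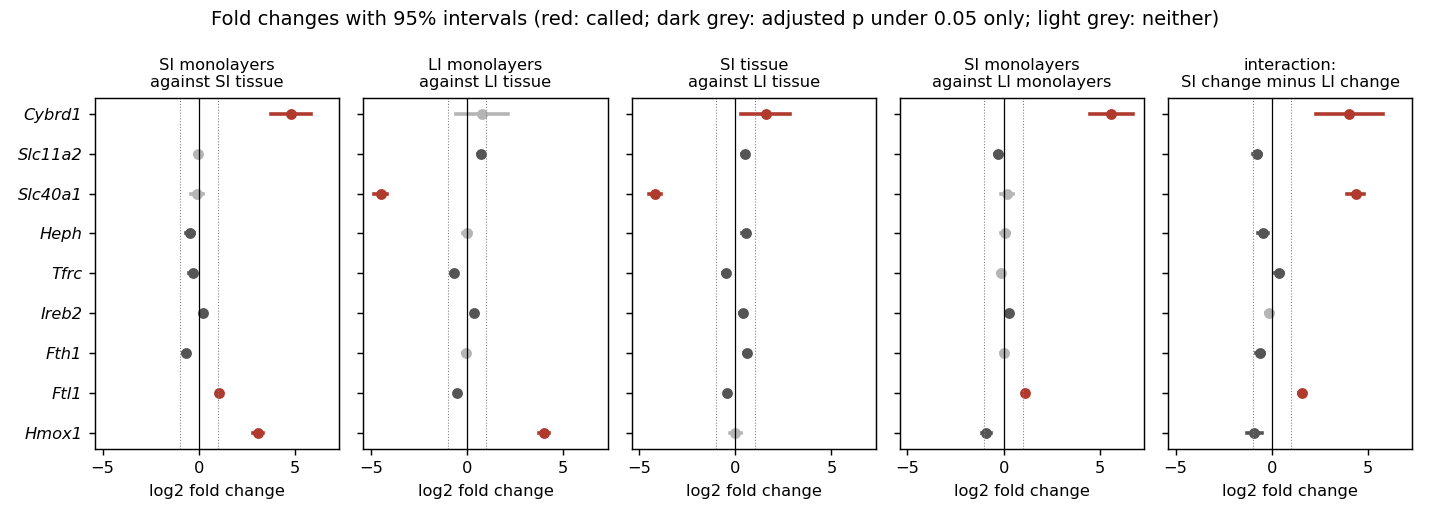
Log2 fold changes of the 9 genes with 95% intervals in the 4 pairwise comparisons and the interaction (SI change minus LI change), where red marks called genes, dark grey those past the adjusted p alone and light grey the others. The dotted lines stand at a log2 fold change of 1 in either direction, and the widest intervals are those of Cybrd1.

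How much of each member's variation lay with region, preparation or their interaction was read from the sums of squares of log2 values over the 12 libraries. Hmox1 varied with preparation (95.9%), as did Tfrc to a lesser share (62.1%). Ftl1 and Slc11a2 varied mainly with the interaction (81.3% and 57.3%). For Slc40a1 region, preparation and interaction took 28.6%, 37.6% and 33.1%, the shares of a gene that is high in 1 group of 4. For Cybrd1, also high in 1 group of 4, region took 46.6%, preparation 33.0% and interaction 15.7%. Spread between replicates took 21.8% for Heph and at most 7.77% for the other members.

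Of 63 other iron genes, listed by role, 59 were tested. SI monolayers against SI tissue gave 5 called higher and 11 lower, and LI monolayers against LI tissue 6 higher and 15 lower. These are 8.47% and 18.6% in SI and 10.2% and 25.4% in LI, near the shares of all tested genes (9.71% and 16.4%, and 14.5% and 23.5%). SI tissue against LI tissue gave 12 higher and 5 lower, SI monolayers against LI monolayers 10 higher and 2 lower, and the interaction 10 higher and 5 lower. The shares higher and lower were 20.3% and 8.47% between tissues, 16.9% and 3.39% between monolayers, and 16.9% and 8.47% for the interaction, beside 11.6% and 11.1%, 12.4% and 8.88%, and 11.4% and 8.51% over all tested genes. The median log2 fold change of the list was -0.020 in SI and -0.21 in LI with culture, 0.12 between tissues and 0.21 between monolayers, beside -0.049, -0.052, 0.055 and 0.021 over all tested genes.

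Among 14 genes of the transferrin cycle and other uptake, 3 were called higher and 5 lower with culture in SI, and 2 higher and 6 lower in LI. These are 21.4% and 35.7% in SI and 14.3% and 42.9% in LI, read against the same 9.71% and 16.4%, and 14.5% and 23.5%, of all tested genes. Steap2, a ferrireductase, rose in both regions, by 1.86 ± 0.09 in SI (adjusted p = 1.28e-10) and 2.31 ± 0.09 in LI (adjusted p = 4.25e-12). Steap4, a ferrireductase, and Trf, transferrin itself, were high where Slc40a1 was high. Steap4 held 942.8 to 1410 normalized counts in LI tissue and at most 74.1 elsewhere, and its log2 fold change of SI tissue against LI tissue was -5.44 ± 0.26 (adjusted p = 5.89e-11). Between monolayers it was -3.20 ± 0.35 (adjusted p = 1.08e-06). Trf held 2026 to 4520 in LI tissue and at most 651.6 elsewhere (SI tissue against LI tissue -3.07 ± 0.41, adjusted p = 0.000190).

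The receptors of that list behaved otherwise. Cubn, which takes up filtered transferrin in the kidney with Lrp2, had 9.82 to 47.9 normalized counts in LI tissue, and after culture 880.3 to 1075 (4.87 ± 0.54, adjusted p = 2.97e-05). In SI it was called lower with culture, from a mean of 1943 to 541.0 (-1.81, adjusted p = 0.00408), and the interaction was -6.68. SI tissue exceeded LI tissue in Cubn by 5.87 ± 0.54 (adjusted p = 1.45e-05). Lrp2 was low throughout, at 58.4 to 99.8 in SI monolayers and at most 18.8 elsewhere, a rise in SI of 3.37 ± 0.54 (adjusted p = 5.01e-05) and a difference between monolayers of 4.21 ± 0.58 (adjusted p = 1.40e-05). Lcn2, the siderophore binder lipocalin, had 67.7 to 94.6 in LI tissue and at most 5.93 in LI monolayers (-4.45 ± 0.65, adjusted p = 1.35e-05). Slc39a14, an importer of iron and zinc not bound to transferrin, was a regional gene, higher in SI by 1.67 ± 0.08 in tissue (adjusted p = 3.67e-11) and 1.90 ± 0.08 in monolayers (adjusted p = 9.86e-12).

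Of 17 tested heme genes, 3 were called lower and 0 higher with culture in SI, and 6 lower and 2 higher in LI (17.6% lower in SI, and 35.3% lower and 11.8% higher in LI, beside 16.4%, 23.5% and 14.5% of all tested genes). Slc46a1, a heme carrier better known as the proton-coupled folate transporter, had mean normalized counts of 3365 in SI tissue and 704.9 after culture, and in LI of 1239 before and 1884 after it. It fell with culture in SI (-2.22 ± 0.23, adjusted p = 1.82e-05), and the LI change of 0.65 ± 0.22 passed the adjusted p alone (0.0264). The regional order of Slc46a1 turned, with 1.48 ± 0.23 between tissues (adjusted p = 0.000324) and -1.39 ± 0.23 between monolayers (adjusted p = 0.000599). Flvcr2, a relative of the heme exporter Flvcr1, was higher in SI by 4.65 ± 0.24 in tissue (adjusted p = 1.61e-10) and 4.33 ± 0.22 in monolayers (adjusted p = 1.47e-10).

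Of 8 tested genes of mitochondrial iron, edgeR called 0 with culture in SI (5 at an unadjusted p under 0.05) and 1 (higher) in LI. Of 13 genes of iron sensing and ferritin turnover, edgeR called 0 in SI (8 at an unadjusted p under 0.05), and 1 was called higher and 1 lower in LI. The LI shares were 12.5% higher for the mitochondrial list and 7.69% in each direction for the sensing list, beside 14.5% higher and 23.5% lower of all tested genes. In SI, 9.71% of all tested genes were called higher and 16.4% lower, and 59.6% passed the adjusted p alone in either direction. The gene called lower in LI was Epas1 (hypoxia inducible factor 2 alpha), which is known to drive transcription of Slc11a2, Cybrd1 and Slc40a1 in the gut and was named here after its values were seen. Epas1 had a mean of 5766 normalized counts in LI tissue, 1411 after culture, and 1016 and 1197 in SI before and after it. Its LI change was -1.98 ± 0.07 (log2, adjusted p = 9.99e-13). Of these genes Slc40a1 was highest in LI tissue, while Slc11a2 and Cybrd1 had their lowest group means there (3418 and 43.2 normalized counts). The part of Epas1 in these levels was not tested.

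Of 7 tested genes of the hepcidin axis and ferroxidases, 2 were called higher and 3 lower with culture in SI, and 0 higher and 2 lower in LI (28.6% higher and 42.9% lower in SI and 28.6% lower in LI, of few genes, beside 9.71%, 16.4% and 23.5% of all tested genes). Hamp, the hormone hepcidin that blocks ferroportin, had 15, 16 and 53 counts in the LI tissue libraries and 0 in all 6 monolayer libraries. In SI it had 4, 0 and 12 counts in tissue. Tmprss6, a protease that lowers hepcidin, had 22, 32 and 24 counts in the SI tissue libraries and 0, 2 and 0 in the SI monolayers. Both genes are near the detection limit, and as most low counts in these tables are even, each may stand for fewer fragments, so no fold is given.

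**Figure D4:**
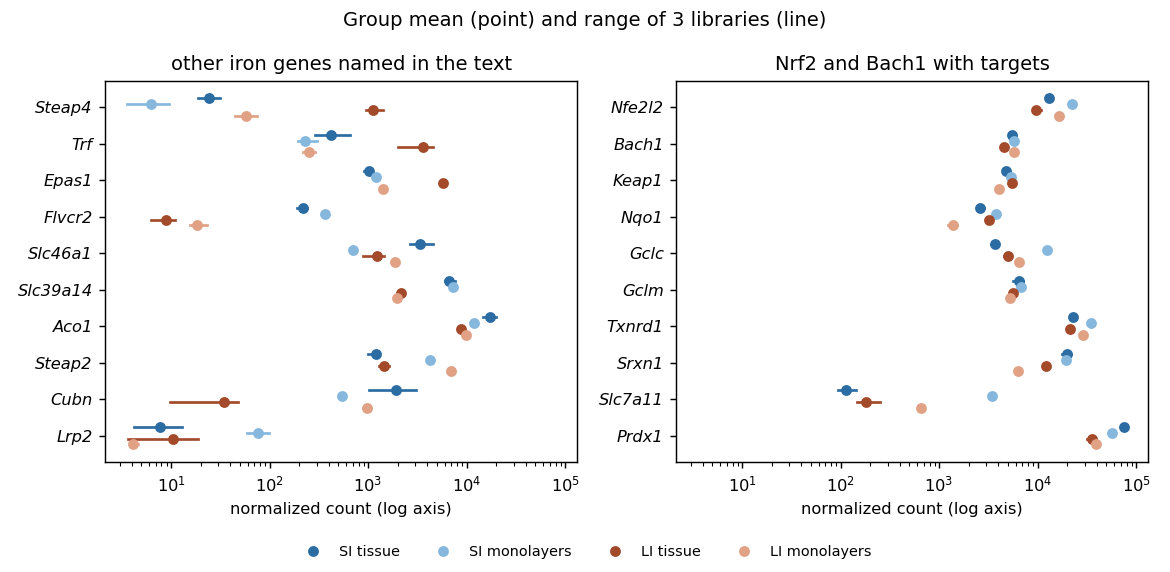
Group means (points) and ranges over 3 libraries (lines) of normalized counts on a log axis for other iron genes named in the text and for Nrf2, Bach1 and targets, to be compared within a gene. Steap4, Trf and Epas1 are highest in LI tissue, and Slc7a11 and Gclc in SI monolayers.

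The genes with the pattern most like each member over the 12 libraries were taken by Pearson's r of log2 normalized counts among 14156 genes, as a description over points that share groups. They were Arl14 and Upk1b for Cybrd1 (r = 0.988 and 0.981), Eps15 and Ecpas for Slc11a2 (0.973 and 0.967), Prcp and Sytl1 for Slc40a1 (0.993 and 0.992), and Cdhr5 and Capn1 for Heph (0.983 and 0.966). For Tfrc they were Dram2 and Hibadh (0.982 and 0.975), for Ireb2 Iapp and Prelid1 (0.976 and 0.973), for Fth1 Il10rb and Lmbr1l (0.984 and 0.981), for Ftl1 Pck2 and Gstm2-ps1 (0.976 and 0.973), and for Hmox1 Flna and Adam8 (0.998 and 0.997). Among the members, the highest r was that of Slc40a1 with Tfrc (0.916) and of Heph with Fth1 (0.906), and the lowest that of Tfrc with Ireb2 (-0.891).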

How the data were processed

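RNA of 12 mouse libraries (3 each of SI tissue, LI tissue, SI monolayers and LI monolayers) was analysed. The authors deposited whole-number counts per gene from paired-end HiSeq reads, aligned to GRCm38 with STAR 2.7.9a and counted on GENCODE vM25 with featureCounts 2.0.2 (strand setting not given in the sources used here). Of low counts (1 to 20), 73.4% to 77.4% were even, as they would be if both mates of a pair were counted, which was not tested. The authors also deposited a normalized signal, each library's counts over its DESeq2 size factor. Both columns of every library were used, and names, lengths and positions come from GENCODE vM21, which named 55141 of 55487 genes. edgeR 4.0.16 (R 4.3.3) was run on the counts, with filterByExpr (19581 genes), TMM, robust quasi-likelihood fits of the 4 group means and Benjamini-Hochberg adjustment within each comparison, and was tested on simulated data. The depth of 59016196 to 76216530 counts puts 3 counts at 0.0394 to 0.0508 CPM. Replicates of a group differed by more than sampling noise. The median squared difference was 5.15 to 9.11 times that noise in tissue and 2.20 to 3.66 times in monolayers. The monolayer libraries are pooled wells and may share mice, so the spread between them may be technical. The p-values of every comparison, also that between monolayers, rest on a spread per gene estimated over all 4 groups, the noisier tissue libraries included.

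The members and lists were chosen with earlier results of these data known. All 9 members are named in every comparison. Of other iron genes, the 2 largest rises and falls called in each pairwise comparison and Aco1, Slc46a1 and Slc39a14 are named. Epas1 and the genes of the Nrf2 list were named after their values were seen. The genes most alike were the top 2 by r with a mean normalized count of at least 50. Alternatives were DESeq2 1.42.0, upper quartile factors, no filter on low counts, no minimum fold change, a minimum of 10 counts in all libraries, fits on only the groups compared, a replicate block, each library left out, and ferritin pseudogene counts added. No pairing of libraries by replicate number was seen in their deviations from the group means, which cannot show whether they share mice.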

Additional observations from a re-analysis of the deposited data

Results flagged for a closer look

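By the interaction test of the 4-group fit, the change from tissue to monolayers differed between SI and LI for 8 of the 9 genes at the adjusted p alone, and for 3 also with the minimum fold change. Over all tested genes 46.3% passed the adjusted p alone in this test, and with the minimum 11.4% were called higher and 8.51% lower. Slc40a1 differed by 4.37 (log2, SI change minus LI change), Cybrd1 by 4.03 and Ftl1 by 1.58. Groups of 3 libraries were not tested for outliers.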

How the results depend on the processing

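Without a minimum fold change, 59.6% of all tested genes were called in SI with culture and 68.7% in LI with culture. The shares were 53.9% between tissues, 51.8% between monolayers and 46.3% for the interaction. In the same order, the number of members called was 7, 6, 8, 5 and 8. Between tissues it was 1 instead of 2 with upper quartile factors, no filter, only the libraries of both groups or the replicate block (Cybrd1, adjusted p = 0.0820), and 1 to 2 when a library was left out. The replicate block changed no other call. No pairing of same-numbered libraries was seen: their deviations did not correlate above 0.0563, and not every library correlated best with its own number. With 3 libraries per group such correlations cannot show whether libraries came from the same mouse. Of 811 gene values under alternatives 757 kept direction and side of the threshold, 15 lost a call (Cybrd1 between tissues and Ftl1 in SI), 2 gained one (Hmox1, interaction) and 37 changed sign, none of them called. Heph in LI was -0.030 (DESeq2), -0.12 (upper quartile), -0.023 (no filter), -0.078 (at least 10 counts), -0.0075 (only the libraries of both groups) and -0.094 to 0.021 leaving out a library. Hmox1 between tissues was in the same order -0.013, -0.067, -0.051, -0.036, -0.054 and -0.14 to 0.14. Fth1 between monolayers was 0.0040 (upper quartile), 0.0054 (only the libraries of both groups) and -0.00089 to 0.042 leaving out a library. Slc40a1 in SI was -0.21 to 0.053 and Ireb2 in the interaction -0.19 to 0.0088 leaving out a library. The cause was not tested. Upper quartile factors moved the median of all genes in LI from -0.052 to -0.17, with 2421 instead of 2832 genes called higher. Counts per gene do not separate transcripts, and RNA does not show translation.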
